A study of Bos indicus x Bos taurus with 20 samples.

Results

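The trophectoderm (TE) was set against the inner cell mass (ICM) in bovine blastocysts that had received METTL7A mRNA as zygotes. Of the 20 RNA-seq libraries of the study, 6 make up this comparison, 3 of METTL7A TE and 3 of METTL7A ICM, chosen by the lineage and treatment in their labels. The embryos were wild type, from a Bos indicus x Bos taurus background. METTL7A mRNA had been made in vitro and injected at the zygote stage, and in the other arm vehicle was injected in its place (Control, 3 TE and 3 ICM libraries). No group received another mRNA, so METTL7A as such and the injection of mRNA cannot be told apart. The labels do not say how many embryos a library held, how the ICM was parted from the TE, or whether replicates came from separate embryo pools, so the spread between replicates may be technical.

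The TE is the outer epithelium of the blastocyst, which pumps fluid into the cavity and later forms the fetal part of the placenta. The ICM is the inner cell group, which gives rise to the embryo proper through the epiblast and to the yolk sac through the hypoblast. In cattle the separation of these lineages is gradual, and factors that mark the ICM can still be found in the TE of early blastocysts. METTL7A is an enzyme that methylates thiols and sits in membranes of the endoplasmic reticulum and around lipid droplets.

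Genes of the ICM and TE libraries are known here by their Ensembl identifiers, and 0 of the 27607 identifiers could be paired with a gene name in the sources used. The lists of TE, ICM, hypoblast and somatic cell markers were therefore not read, the lineage labels were not checked against their defining genes, and the injected METTL7A transcript was not followed. Genes are described below by their level, the size of their difference and their behaviour across libraries.

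Total gene counts were 11023547, 9462759 and 11787756 in the METTL7A TE libraries, against 9541420, 12559582 and 13781538 in the METTL7A ICM libraries. The METTL7A TE libraries held counts of 19861, 19884 and 19238 genes, and the METTL7A ICM libraries of 18702, 19696 and 19894 genes. The mean was 19661 ± 367 genes in METTL7A TE and 19431 ± 639 in METTL7A ICM (SD, n = 3 each), which overlapped (2-sided exact permutation test, p = 0.7, where the smallest p for 3 against 3 is 0.1). The sign of this difference turned without METTL7A ICM replicate 1, to -134 genes. At the depth of the shallowest of these libraries the expected number was 19429 ± 540 genes in METTL7A TE and 19027 ± 294 in METTL7A ICM (exact permutation p = 0.3). The 100 most abundant genes of a library took 35.0%, 37.6% and 33.7% of the counts in METTL7A TE, against 35.8%, 31.7% and 29.9% in METTL7A ICM (exact permutation p = 0.3).

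The METTL7A ICM libraries stood further from each other than the METTL7A TE libraries did. Pearson's r of log2 CPM (counts per gene scaled to library size) ran from 0.960 to 0.971 over the 3 pairs within METTL7A TE and from 0.930 to 0.956 over the 3 pairs within METTL7A ICM. The 9 pairs of a METTL7A TE with a METTL7A ICM library ran from 0.926 to 0.963, a range that takes in all of the ICM pairs. The biological coefficient of variation, the relative spread between replicates beyond counting noise, was estimated at 0.260 in METTL7A TE and 0.389 in METTL7A ICM, and at 0.191 in Control TE and 0.362 in Control ICM. In the principal components of the 6 METTL7A libraries, ICM replicate 3 alone lay at the low end of the first component (-59.5, the other libraries from 6.44 to 19.8). ICM replicate 1 lay at the low end of the second (-49.8, the other libraries from -8.80 to 27.0). ICM replicate 2 had scores of 6.44 and -8.80 on these components. The counts of called genes and the named genes are therefore also given without each library, whereas the descriptions of large folds and of Control-chosen genes use all of them. In bulk libraries, fewer cells of a type and less RNA per cell cannot be told apart.

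**Figure D1:**
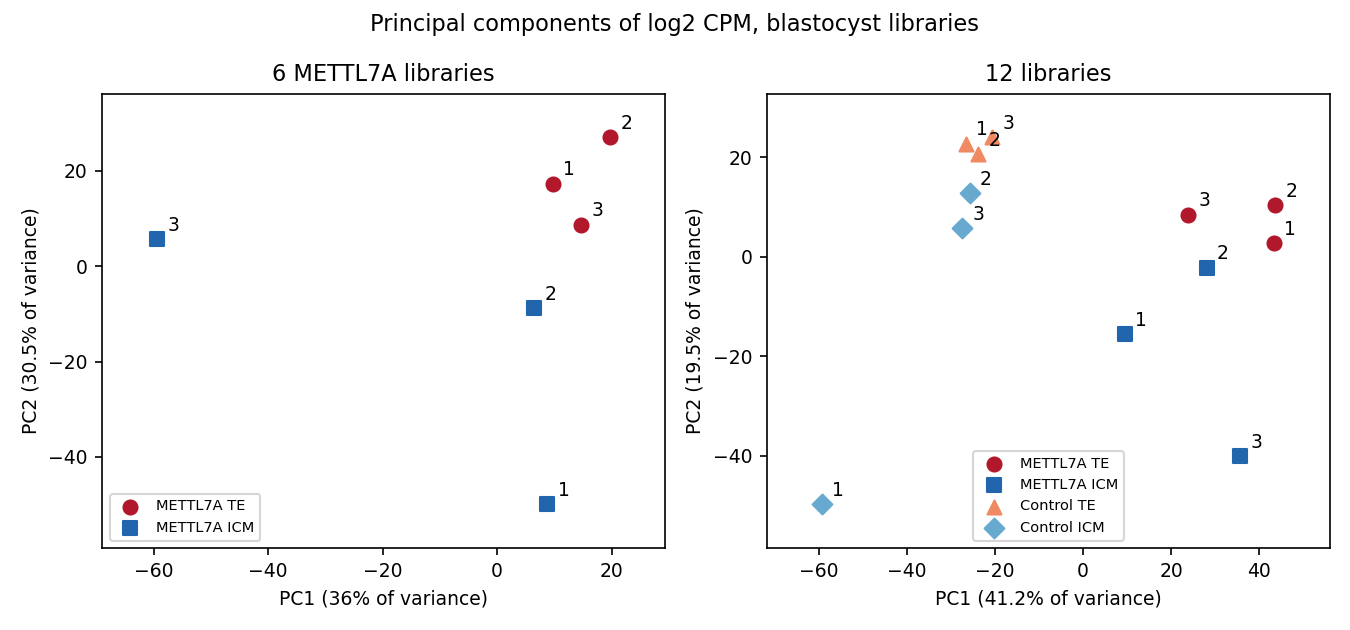
Scores on the first and second principal components of log2 CPM over the 2000 most variable genes, for the 6 METTL7A libraries (left) and for all 12 blastocyst libraries (right). Each point is a library with its replicate number, and the axes give the share of variance. The 3 METTL7A TE libraries lie together, whereas METTL7A ICM replicates 1 and 3 lie apart from them and from each other.

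Between TE and ICM of METTL7A-injected blastocysts, 21 of 14128 tested genes differed, 16 higher and 5 lower in TE, or 0.149% of the genes tested (0.113% higher and 0.0354% lower, edgeR quasi-likelihood test, Benjamini-Hochberg adjusted p under 0.05). Adjusted p-values ran from 0.00144 to 0.0475 among the higher and from 0.0306 to 0.0468 among the lower genes. At an unadjusted p under 0.05 there were 1833 genes, 13% of those tested. The number of called genes was 3 without METTL7A TE replicate 1, 1 without TE replicate 2 and 12 without TE replicate 3. It was 1 without METTL7A ICM replicate 1, 25 without ICM replicate 2 and 1 without ICM replicate 3. The 21 genes kept their direction in every one of these 6 fits. Leaving out 1 library could hardly change it, since their TE and ICM libraries did not overlap, so this is no further support. DESeq2 called 270 genes, 144 higher and 126 lower, which included 20 of the 21, and limma-voom called 7. A fit of the 6 METTL7A libraries alone called 2 genes, of which 1 was among the 21.

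The 16 higher genes had a median level of 13.5 CPM in METTL7A TE, and the 5 lower genes had a median level of 40.4 CPM in METTL7A ICM, with ranges that overlapped. Among 15 of the 16 the log2 fold change ran from 1.53 to 5.20 with a median of 3.08. The gene at 5.20 held 0, 0 and 4 counts in the METTL7A ICM libraries. The gene at 4.19 held 3, 2 and 2 there, so these folds are imprecise. The gene left out of the 15 had 82 counts in the METTL7A TE libraries together and 1 count in the METTL7A ICM libraries. Scaled to the TMM library sizes, the ratio of these counts was 91.6 (exact 95% interval for counting error, 16.0 to 3661). A mean of 10 CPM in METTL7A TE was reached by 9 of the 16. Group means of the 16 genes ran from 2.59 to 918.6 CPM in METTL7A TE and from 0.0229 to 317.6 CPM in METTL7A ICM (median 2.23). The 5 lower genes had log2 fold changes from -1.57 to -1.11, with means from 11.8 to 42.6 CPM in METTL7A TE and from 33.0 to 103.3 CPM in METTL7A ICM. In each of the 21 genes the 3 TE libraries did not overlap the 3 ICM libraries. Over all tested genes, 8.95% had all 3 METTL7A TE libraries above the 3 METTL7A ICM libraries and 9.46% had all 3 below.

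**Figure D2:**
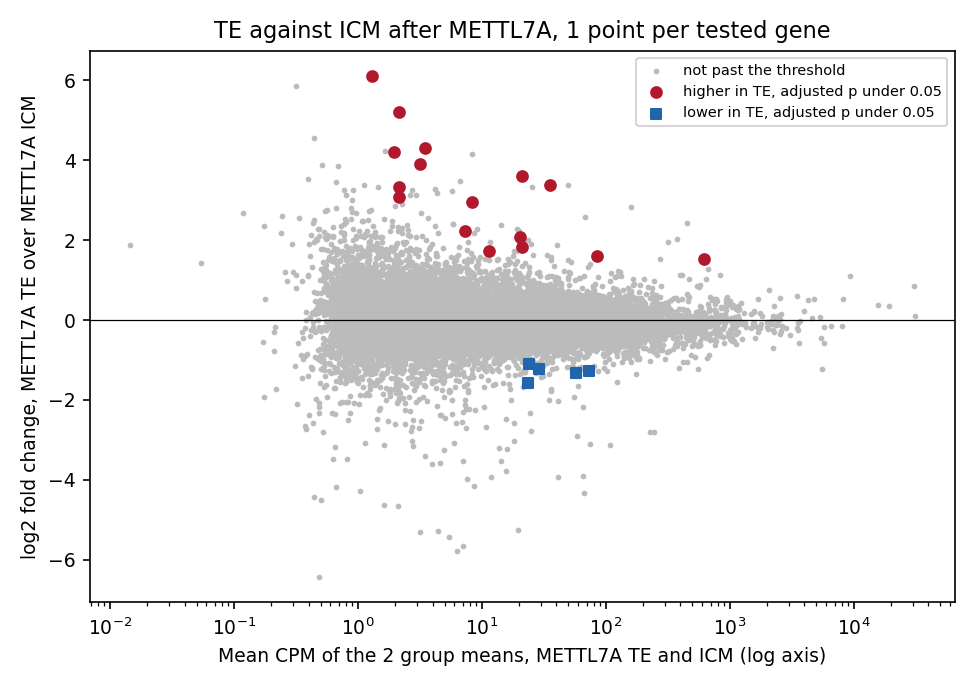
log2 fold change of METTL7A TE over METTL7A ICM (vertical axis) against the mean CPM of these groups (horizontal log axis) for the 14128 tested genes. Red circles are the 16 genes higher in TE and blue squares the 5 genes lower in TE at an adjusted p under 0.05. The 104 genes at log2 fold changes of -2 or below hold none of the called ones.

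The 2 higher and 2 lower genes with the smallest p are given in full. Only called genes whose METTL7A TE and ICM libraries did not overlap could be picked, so their separation there is part of the choice. ENSBTAG00000007061 was at 45.6, 49.5 and 100.5 CPM in the METTL7A TE libraries, against 4.78, 5.08 and 8.94 CPM in the METTL7A ICM libraries. Every TE library stood above every ICM library, and TE replicate 3 was the highest. The log2 fold change was 3.37 (SE 0.367, edgeR adjusted p = 0.00144), on 2253 counts over METTL7A TE and 244 over METTL7A ICM. This gene stayed past the threshold in all 18 alternative fits, with log2 fold changes from 2.93 to 3.74. In Control it was at 3.34, 2.07 and 1.93 CPM in TE, against 0.799, 1.38 and 1.66 CPM in ICM. Both METTL7A groups thus stood above both Control groups in every library.

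ENSBTAG00000020127 was at 18.9, 19.0 and 6.59 CPM in the METTL7A TE libraries, against 1.85, 1.89 and 1.92 CPM in the METTL7A ICM libraries. TE replicate 3 was well below the other TE libraries, and the ICM libraries were close to each other. The log2 fold change was 2.96 (SE 0.425, edgeR adjusted p = 0.0236). In Control the TE libraries held 7.56, 5.89 and 10.02 CPM, against 6.39, 10.9 and 5.53 CPM in the ICM libraries, and these groups overlapped. The call was lost in 7 of 18 alternative fits, among them those without METTL7A TE replicate 1 or 2 and without ICM replicate 1 or 3, with adjusted p up to 0.105.

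ENSBTAG00000007335 was at 48.2, 40.5 and 39.2 CPM in the METTL7A TE libraries, against 85.8, 88.4 and 135.5 CPM in the METTL7A ICM libraries. ICM replicate 3 was the highest and no TE library reached an ICM library. The log2 fold change was -1.28 (SE 0.21, edgeR adjusted p = 0.0306). In Control the same order held, with 55.8, 55.1 and 48.4 CPM in TE and 83.2, 65.3 and 63.4 CPM in ICM, at a log2 fold change of -0.41 (edgeR adjusted p = 0.315).

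ENSBTAG00000045925 was at 15.6, 8.54 and 11.3 CPM in the METTL7A TE libraries, against 41.7, 33.7 and 29.8 CPM in the METTL7A ICM libraries. The METTL7A ICM libraries were the highest of all 12. The log2 fold change was -1.57 (SE 0.262, edgeR adjusted p = 0.0306). In Control TE it was at 14.8, 17.1 and 12.1 CPM and in Control ICM at 10.9, 9.47 and 13.7 CPM, with overlapping libraries. Both lower genes lost their call in 6 of 18 alternative fits. For each of them 5 of the 6 left out a library, all except METTL7A ICM replicate 2, and the last was the fit of the METTL7A libraries alone. Their adjusted p reached 0.238 for ENSBTAG00000007335 and 0.240 for ENSBTAG00000045925.

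**Figure D3:**
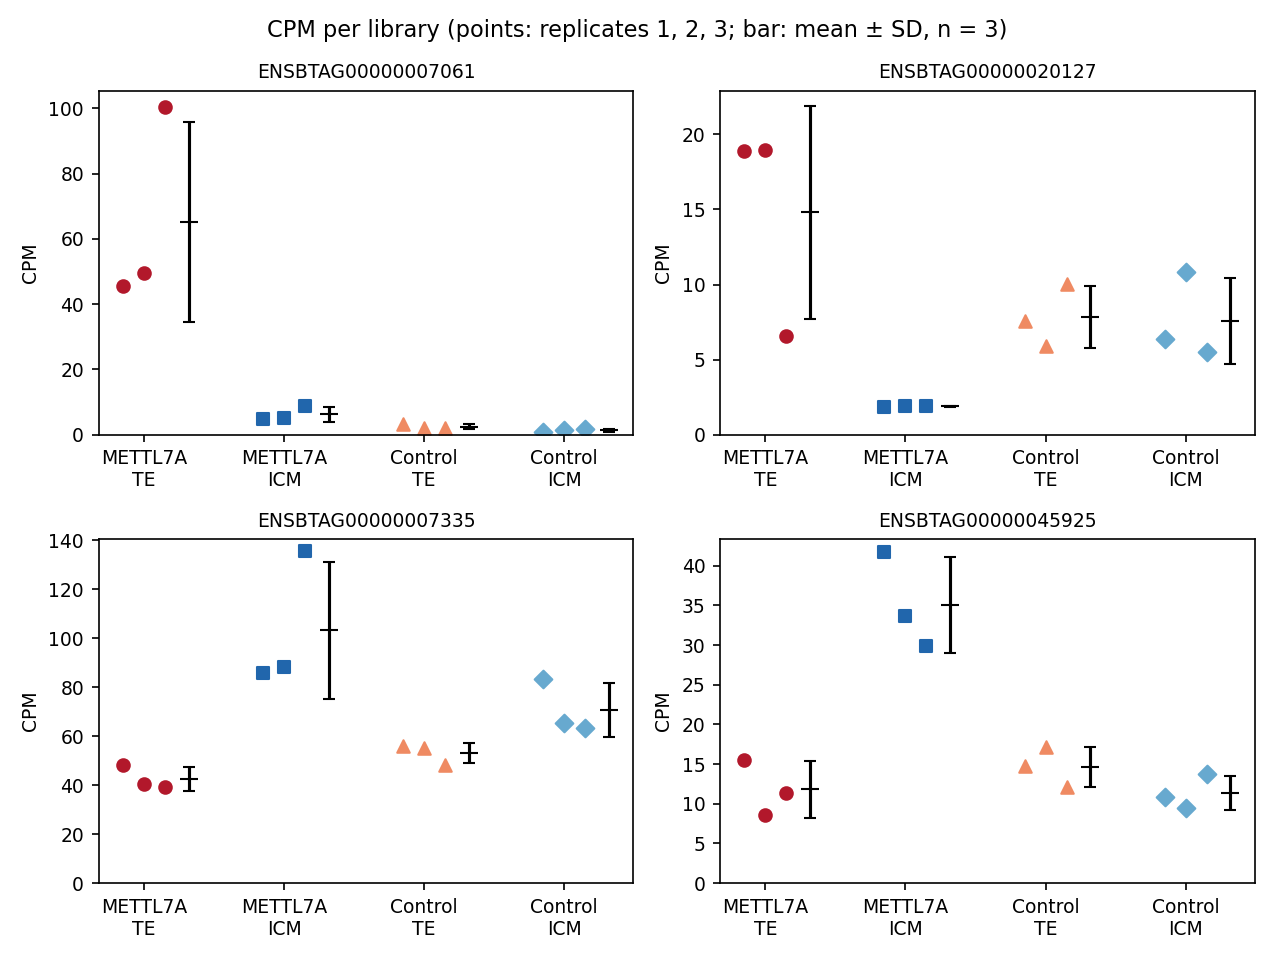
CPM of the 4 named genes in each library, with METTL7A TE, METTL7A ICM, Control TE and Control ICM from left to right in each panel and a linear axis from 0. Points are replicates 1 to 3 and bars show the mean ± SD (n = 3). The METTL7A TE and METTL7A ICM libraries do not overlap in any panel, which the choice of genes required. The Control TE and Control ICM libraries, to which that condition did not apply, overlap for ENSBTAG00000020127 and ENSBTAG00000045925.

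Most genes differed little between the lineages after METTL7A. The median log2 fold change over all tested genes was -0.0187, the quartiles were -0.318 and 0.317, and 74.9% of genes lay within 1.5-fold. Without regard to the test, 770 genes were 2-fold or more higher and 563 were 2-fold or more lower in METTL7A TE. By level, 0 of the 1035 genes under 1 CPM were called. Among 5272 genes of 1 to 10 CPM, 9 were higher and 0 lower, and among 6119 genes of 10 to 100 CPM, 6 were higher and 5 lower. Of 1599 genes from 100 to 1000 CPM 1 was higher, and of the 103 genes above 1000 CPM 0 were called.

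The large differences were spread unequally over the libraries. At 4-fold or more, 126 genes were higher in METTL7A TE, of which 12 were called, and 104 were lower, of which 0 were called. Among the 104 lower genes a single ICM library held a median of 84.7% of the summed CPM of the 3 ICM libraries, and in 60 of them it held more than 80%. Over all tested genes the median was 41.9%, and 1.72% of genes passed 80%. The highest ICM library was replicate 3 in 68 of the 104 genes, replicate 1 in 28 and replicate 2 in 8, whereas over all tested genes replicate 3 was the highest in 34.2%. The ICM libraries all stood above the TE libraries in 29 of the 104 genes, against 9.46% of all tested genes. Among the 126 higher genes the highest TE library held a median of 49.3% of the summed CPM, and it held over 80% in 4 of them. TE replicate 2 was the highest in 76 of the 126, against 30.2% of all tested genes. The TE libraries all stood above the ICM libraries in 107 of the 126, against 8.95% of all tested genes. The 126 and 104 genes were picked by the size of their fold in the same libraries, so the counts are a description.

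Some transcripts were seen in a single lineage, most with few counts. With at least 1 count in each library of a lineage and 0 in every library of the other, 89 genes were found in METTL7A TE alone and 93 in METTL7A ICM alone. Their summed counts over the 3 libraries had a median of 5 and a maximum of 21 in TE, and a median of 7 and a maximum of 187 in ICM. Of each set 1 gene reached the test and 0 were called. With at least 10 counts in each library, 0 genes were found in either lineage alone.

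The same lineage comparison in Control blastocysts called 0 of 14128 genes (0%, edgeR), although 2479 genes (17.5%) had an unadjusted p under 0.05. DESeq2 called 496 genes in Control, limma-voom 0, and limma-voom with library quality weights 109. Without Control ICM replicate 3 edgeR called 405 genes, 81 higher and 324 lower in TE, whereas leaving out any other Control library called 0. The difference between the METTL7A and Control contrasts was tested in the same model. It was called for 0 genes (0%, edgeR), with 1170 genes (8.28%) at an unadjusted p under 0.05, 33 genes called by DESeq2 and 0 by limma-voom with or without quality weights. Leaving out a library moved this count to 2 without Control ICM replicate 3 and to 1 without METTL7A TE replicate 2, METTL7A ICM replicate 2, METTL7A ICM replicate 3 or Control ICM replicate 1. The 21 calls after METTL7A are thus not shown to be particular to METTL7A-injected blastocysts.

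The called genes had smaller lineage differences in Control. The 16 higher genes had a median log2 fold change of 3.21 in METTL7A and 0.46 in Control. In 12 of the 16 the sign was the same in both, against 61.5% of all tested genes. The 5 lower genes had a median of -1.28 in METTL7A and -0.39 in Control, with 3 of the same sign. These genes were chosen on the METTL7A libraries, which favours larger values there. The difference between the contrasts contains the METTL7A contrast on which these genes were chosen, so small unadjusted p-values of it are favoured. They were under 0.05 (edgeR) in 15 of the 16 higher and in all 5 lower genes, against 8.28% of all tested genes. The smallest adjusted p of the difference was 0.0922 (edgeR). That value belonged to a lower gene with means of 17.3 CPM in METTL7A TE and 40.4 CPM in METTL7A ICM, and of 27.1 CPM in Control TE and 16.2 CPM in Control ICM. METTL7A TE had the highest mean of the 4 groups in 14 of the 16 higher genes, and METTL7A ICM had the lowest in 13. Choosing genes with METTL7A TE above METTL7A ICM favours these ranks, and their share over all tested genes was not counted. The called gene of highest level averaged 918.6 CPM in METTL7A TE and 317.6 CPM in METTL7A ICM, and 1493 CPM in Control TE and 617 CPM in Control ICM. Its log2 fold changes were 1.53 in METTL7A and 1.27 in Control (edgeR adjusted p = 0.0244 and 0.116).

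**Figure D4:**
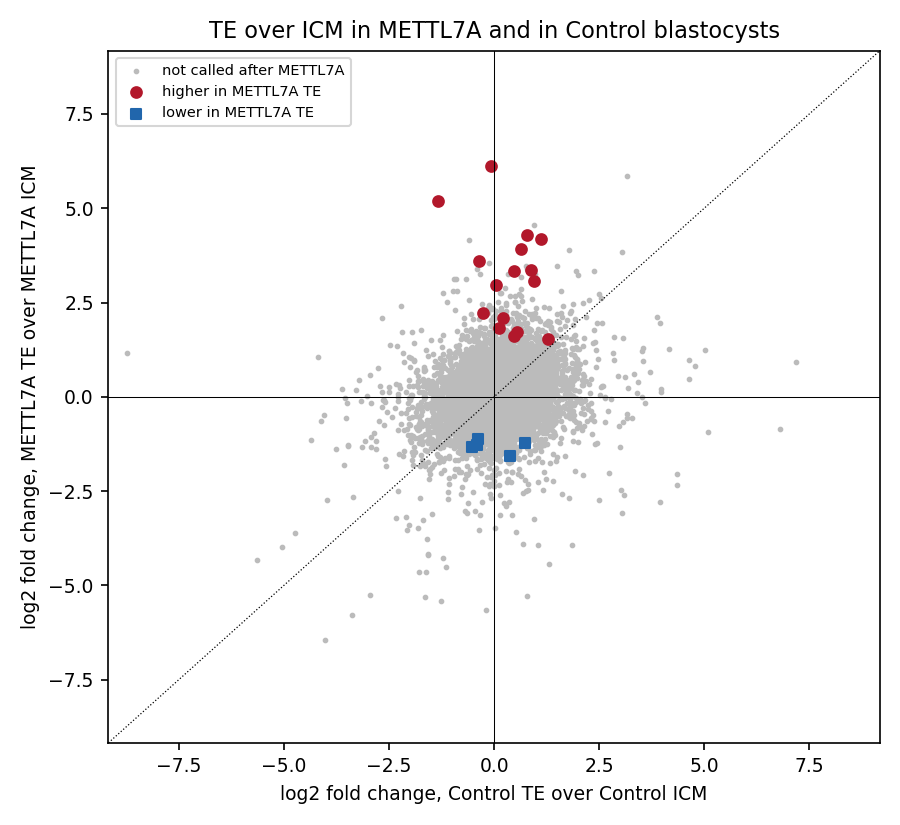
log2 fold change of METTL7A TE over METTL7A ICM (vertical axis) against that of Control TE over Control ICM (horizontal axis), 1 point per tested gene, with the dotted line of equal values. The 16 higher and 5 lower genes called after METTL7A are coloured. All 16 lie above the dotted line, between -1.34 and 1.27 on the Control axis.

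Across the 14128 genes the METTL7A and Control contrasts were weakly related, with Pearson's r = 0.264 and Spearman's rho = 0.288. The contrasts share no library, and genes are not independent replicates. In 61.5% of genes the sign was the same. Genes whose Control libraries parted by lineage were then read in the METTL7A libraries, which had no part in choosing them. The choice favours larger values in Control, so a smaller median in METTL7A does not by itself show a weaker lineage difference. In Control, 1799 genes (12.7%) had all TE libraries above all ICM libraries. In METTL7A their median log2 fold change was 0.126 against 0.745 in Control, and 237 of them (13.2%) parted in the same direction and 95 (5.28%) in the opposite one. Over all tested genes 8.95% parted upward and 9.46% downward in METTL7A. For the 1797 genes (12.7%) with all Control TE libraries below the Control ICM libraries, the median was -0.243 in METTL7A against -0.643 in Control. Of these, 410 (22.8%) parted in the same direction in METTL7A and 49 (2.73%) in the opposite one. Of the 21 genes called after METTL7A, all of which parted there, 8 parted the same way in Control and 2 the opposite way. The 8 were 5 of the 16 higher and 3 of the 5 lower genes. Among all genes that parted in METTL7A, 18.7% of those upward and 30.7% of those downward parted the same way in Control.

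In each METTL7A library the level of these Control-chosen genes was taken as the median of log2(CPM + 1). The genes low in Control TE stood at 5.31, 5.21 and 5.29 in the METTL7A TE libraries, against 5.59, 5.46 and 5.59 in the METTL7A ICM libraries, and these did not overlap. The genes high in Control TE stood at 3.65, 3.74 and 3.72 in METTL7A TE, against 3.49, 3.70 and 3.43 in METTL7A ICM. Here ICM replicate 2 lay within the range of the TE libraries, and it was the ICM library nearest to TE in both gene groups. As a share of all counts, the genes low in Control TE took 21.8%, 18.5% and 18.9% in METTL7A TE, against 24.1%, 21.2% and 23.2% in METTL7A ICM. Those high in Control TE took 7.11%, 7.27% and 7.67% in METTL7A TE, against 5.82%, 7.69% and 7.03% in METTL7A ICM. On this measure the METTL7A TE and ICM libraries overlapped in both gene groups. Control ICM replicate 1 was the lowest of all libraries for the genes high in Control TE (2.75) and the highest for those low in Control TE (6.03). In the principal components of the 6 Control libraries it lay alone on the first component (-75.7, the other libraries from 2.97 to 25.1). It also had the lowest total count of the 12 libraries (7261807). The part of depth in these values was not tested, nor was the part of this library in the choice of the genes.

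**Figure D5:**
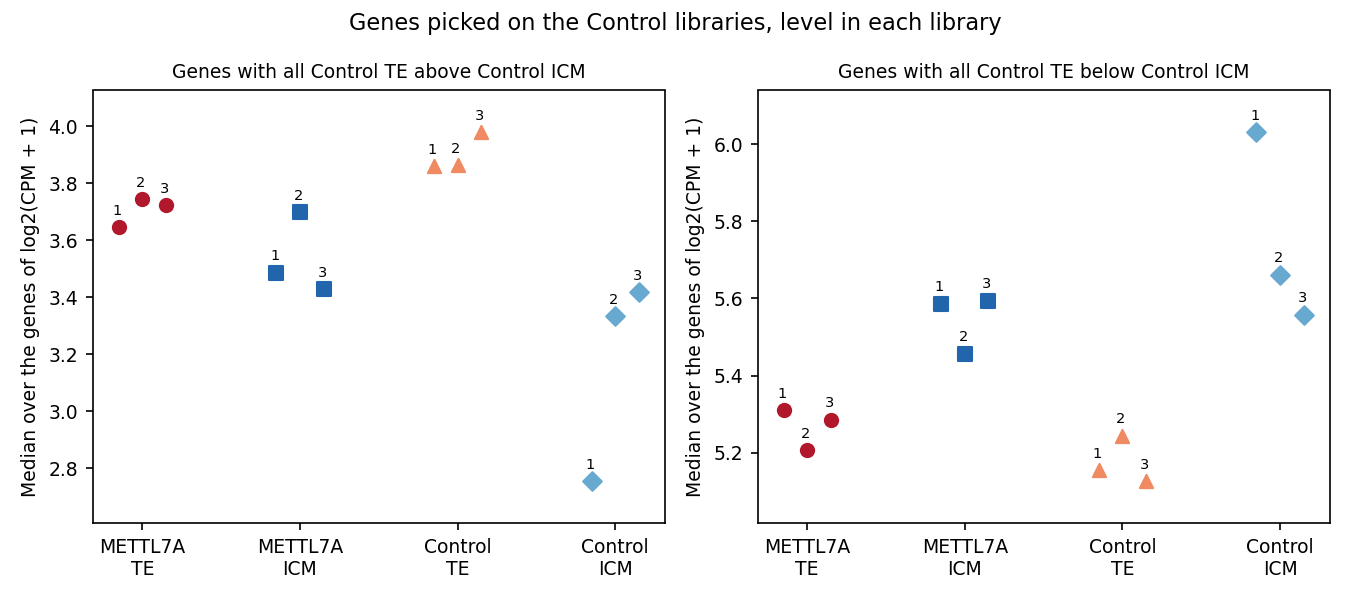
Median of log2(CPM + 1) in each library over the 1799 genes with all Control TE libraries above the Control ICM libraries (left) and the 1797 genes with all below (right). Points are libraries with their replicate number, and the axes do not start at 0. The METTL7A libraries had no part in choosing the genes, whereas the choice fixed that the Control TE and Control ICM libraries part. METTL7A TE and ICM libraries part on the right and overlap on the left, where ICM replicate 2 lies at 3.70.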

How the data were processed

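The authors deposited raw read counts as whole numbers, without normalization, per the file headers and the values. SMART-Seq v4 cDNA went into Nextera XT libraries, per the labels' protocols. These do not mark the strand, so overlapping and antisense genes cannot be told apart. The submitters' processing notes name Trim Galore 0.6.10, FastQC, STAR 2.7.11b, Subread 2.0.6 and DESeq2 1.44.0. A genome build was not given in the sources used here. Each column was matched to a sample by name. The table of 2-cell and 8-cell embryos was not used here.

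All 12 ICM and TE libraries (7261807 to 13781538 counts) were fitted in R 4.3.3 with edgeR 4.0.16, using 1 coefficient per group, TMM factors, filterByExpr (minimum count 10, minimum total 15) and the robust quasi-likelihood test on 14128 of 27607 genes. P-values are 2-sided and were adjusted by Benjamini-Hochberg over all tested genes, with a threshold of 0.05. Standard errors are the log2 fold change divided by the root of the F statistic, and CPM uses TMM-scaled library sizes. Intervals cover counting error only. DESeq2 1.42.0, limma 3.58.1 (voom), other scalings and filters, a replicate block and leaving out each library were alternatives, and library quality weights were added after seeing the data. The procedure was tested on simulated data.

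Named genes were the 2 higher and 2 lower of smallest p among called genes with groups that did not overlap and at least 10 CPM in the higher group. The comparison, lists and rule were chosen with earlier results of these data known. No replicate pair was within counting noise (chi-square per degree of freedom 15.5 to 88.2).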

Additional observations from a re-analysis of the deposited data

How the results depend on the processing

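The number of genes called between METTL7A TE and METTL7A ICM (21) lay between 14 and 21 under the other scalings, a minimum count of 50 and a non-robust fit. It was 138 with no low-count filter, 270 with DESeq2, 7 with limma-voom, 16 with library quality weights and 2 in a fit of the 6 METTL7A libraries alone, and 1 to 25 when a library was left out. The Control count (0) was 248 with no filter, 496 with DESeq2, 109 with quality weights and 0 to 405 with a library left out. The count for the difference of the contrasts (0) was 17 with no filter, 33 with DESeq2 and 0 to 2 with a library left out. The cause of these shifts was not tested. TE and ICM libraries share replicate numbers, which the labels do not tie to shared embryos. Deviations of same-numbered METTL7A libraries correlated at 0.0696 to 0.0983, under the 0.1 set for pairing, and each of the 6 correlated best with its own number, a hint from the data and not the design (3 of 6 in Control). The 6 matches are read from the same set of correlations and are not independent of each other. With a replicate block, 53 genes were called over 12 libraries (17 of the 21 among them) and 163 (20 of the 21) in the METTL7A libraries alone. In Control and for the difference the block called 0. The TE minus ICM difference in genes detected (230.3) was -23 at 10 counts or more and -134 to 462 with a library left out, and that in the share of the 100 most abundant genes was 1.64 to 4.58 percentage points. Genes seen in TE alone (89) were 0 at 10 counts in each library, 274 with at most 1 count allowed in ICM and 167 to 258 with a library left out. Genes seen in ICM alone (93) were 0, 264 and 149 to 243. Of the 4 named genes, 0 changed direction in 18 settings each. Their choice by METTL7A libraries that did not overlap made this nearly certain.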
